A study of Drosophila melanogaster with 3 samples.

Results

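Fas1, drl and Ama encode cell-surface or secreted proteins that act in axon guidance, muscle attachment and cell adhesion. Their Col peaks were taken as all summits whose gene label was Fas1, drl or Ama, which gave 5 of the 559 deposited summits: 1 at Fas1, 3 at drl and 1 at Ama. A single label was required to match in full, so Drl-2, a separate gene, was not counted.

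Collier (Col), listed as knot (kn) in many gene tables, is the only Drosophila member of the COE family of transcription factors, whose vertebrate members are the EBF proteins. These factors bind DNA as dimers at a palindromic sequence. Col acts in the embryonic head, in muscle progenitors, in the nervous system and in the lymph gland. Fasciclin 1 (Fas1) is a membrane-anchored adhesion protein of axons that gave its name to the FAS1 domain. Derailed (drl) is an atypical receptor tyrosine kinase of the Ryk type, which binds Wnt5, directs axons to the anterior commissure of each segment and is needed for some muscles to find their attachment sites. Amalgam (Ama) is a secreted immunoglobulin-domain protein that binds the transmembrane protein Neurotactin (Nrt).

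Chromatin came from whole Drosophila melanogaster embryos of stages 13 to 14 and was precipitated with a mix of 3 monoclonal antibodies against Col, or with an antibody against the HA tag as mock-IP. The embryos carried a lacZ transgene driven by a col enhancer whose Col site had been changed to the consensus, a feature shared by Col-IP and mock-IP. Each antibody gave 1 sequenced library from pooled IPs, and the labels also list input DNA. The deposited list holds the peaks called for the Col-IP and gives neither read counts nor replicates. The reads behind each summit and the replicate error are therefore unknown, and every value below is a description of 1 library without a test. Whole embryos were used, so the list cannot tell in which cells a site was occupied.

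The sequences below are the Col sites listed for the 5 summits, shown so that the match of each to the Col motif can be read. Each is 15 bases long and is written on the motif strand, 5′ to 3′, with the bases that match CCCNNGGGA in capitals and all others in lower case. The drl summits are numbered from the highest to the lowest fold enrichment.
Fas1: actCCCcgGGGAaga
drl summit 1: tcggCCgcGGGAacc
drl summit 2: gctCCtgaGGGAttt
drl summit 3: cgtCCtcgGGGcatc
Ama: cctCCCatGGGAacg
The Fas1 site lies on chromosome 3R from 12455735 to 12455749 (dm3) and the Ama site on chromosome 3R from 2587386 to 2587400. Those of drl lie on chromosome 2L, from 19202578 to 19202592 for summit 1, from 19236575 to 19236589 for summit 2 and from 19199776 to 19199790 for summit 3. The sources used here do not give the genomic strand of each site. The Fas1 and Ama sites held the whole motif, as did 37.5% of all 542 listed sites. As written above, each drl site lacked 1 base of its left arm, CCC, and that of summit 3 also lacked the last A.

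The Fas1 summit was among the strongest of the whole list, whereas the summits at drl and Ama ran from near the median to the low end. Fas1 had its summit at position 12455682 of chromosome 3R with a fold enrichment of 8.84, the ratio that the peak caller SISSRs assigned to it. It ranked 5 of 559 and was the highest of the 131 summits on that arm. Its neighbours in rank were Smr, a corepressor gene, at 9.38 and Oaz, a zinc finger gene, at 8.51. Among the 314 gene labels with a single summit, Fas1 came after Sep4 and Smr alone.

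The 3 drl summits were at positions 19202582, 19236522 and 19199742 of chromosome 2L, with fold enrichments of 2.95, 2.6 and 2.11. Their ranks were 261, 346 and 509, so they ran from just above the median of all summits, 2.85, to the low end of the list, with 91.4% of the summits at or above the weakest. The Ama summit, at position 2587402 of chromosome 3R, reached 2.53 (rank 368) and lay between the middle and the weakest of the drl summits. Summits with nearly the same value surrounded it, such as tup, a LIM-homeodomain gene, at 2.54.

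The ratio of the Fas1 value to the highest drl value was 3.00, and to the Ama value 3.49. With a fold enrichment of at least 3 as the criterion, 1 of the 5 summits remained, that of Fas1, beside 44.9% of all summits (95% Wilson interval 40.8 to 49.0%, counting error over peaks only). Of the genes, drl and Ama would then have no peak. The paper gives other evidence for Ama, from embryos younger than those used here. It reports that mutating this Col site removed expression of an Ama reporter from the hypopharyngeal lobe of the head. In col mutants, transcription of the endogenous gene was lost from that lobe too.

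**Figure D1:**
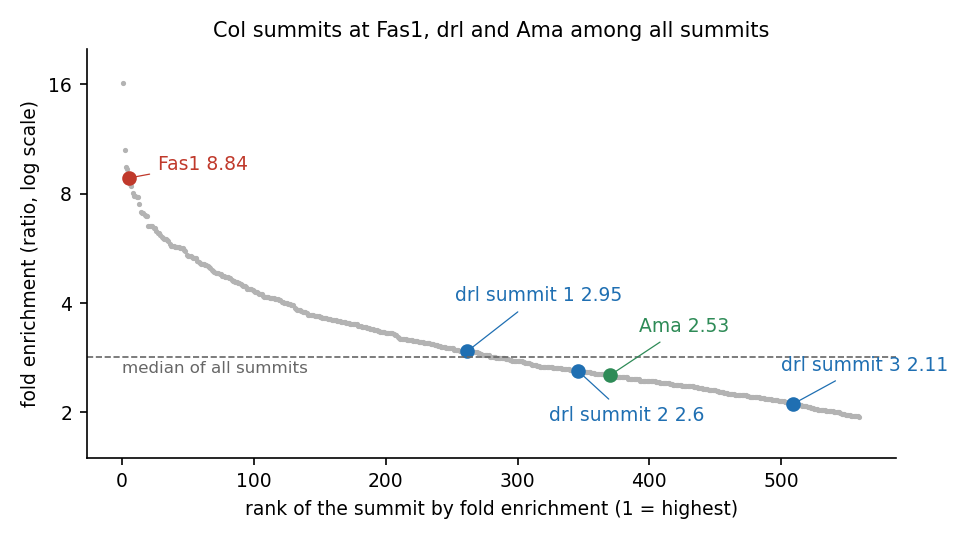
Fold enrichment of all 559 summits (grey, log scale) against their rank, with the 5 summits at Fas1 (red), drl (blue) and Ama (green) and the median of the list (dashed). Fas1, at 8.84, stands at the top end, drl summit 1 just above the median, and the other 3 summits below it.

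In the authors' annotation, the Fas1 summit and drl summits 1 and 3 were intragenic, drl summit 2 was placed on the 3′ side of the gene and Ama on the 5′ side. The same table marks drl summit 2 as curated from enhancer reporter lines, the Vienna Tiles. Introns and exons were not separated here.

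With 3 peaks, drl belonged to a small group of genes: 29 of 409 gene labels (7.09%, Wilson interval 4.98 to 10.00%) had 3 or more. Within that group drl had the weakest leading summit. The highest summit of the 29 labels ran from 2.95, that of drl, to 16.17, with a median of 4.38. Its peaks were spread over 36780 bp, rank 11 of the 29 spans, which ran from 2780 to 137680 bp with a median of 21730 bp. Summits 1 and 3 lay 2840 bp apart, and summit 2 lay 33940 bp from summit 1. The drl peaks were thus a close pair and a distant single peak rather than an even series. Both the place of drl in this group and its span rest on summit 2, the one marked as curated. Without it, only the pair 2840 bp apart would remain.

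Among the listed sites, a whole motif was found at the highest of the 5 summits and at the low summit of Ama, and at none of drl. The exact sequence CCCNNGGGA, read on either strand, was present at 2 of the 5 summits, Fas1 and Ama, beside 37.5% of all 542 sites. Both also held T directly before the motif at the central positions, a form found in 13.5% of the sites. Fas1 held 10 of the 12 specified bases of the longer sequence that EBF selects in vitro, and Ama held 9. Among all sites 14.6% held 10 or more and 39.5% held 9 or more.

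Yet the sites of Fas1 and Ama went with very different peaks. The 73 sites with T and the whole motif had summits from 1.96 to 16.17, with a median of 4.11, beside a median of 2.78 for the other 469 sites. In that set Fas1 ranked 3 and Ama 64. The motif is used by the authors' search to pick the sites, so these ranks describe the listed sites.

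The spacer between CCC and GGG also differed. Fas1 carried CG, giving the self-complementary word CCCCGGGG, which was found in 22 sites with fold enrichments from 1.95 to 8.84 (median 3.15). Fas1 was the highest of them, ahead of those at px, so and tup among others. Ama carried AT, giving CCCATGGG, which is self-complementary too. It was found in 21 sites with values from 2.13 to 10.58 (median 2.87), of which Ama ranked 14.

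At drl, each site held 5 of the 6 bases of CCCNNGGG, with the whole right arm GGG and 2 of the 3 bases of the left arm. A loss on the left was the usual form, seen in 212 of the 242 sites with 5 bases (87.6%), and the search orients the sites by the motif. Positions are counted from 1 at the 5′ end of the sequences above, with the specified base written first. Summit 1 had C4G, a change present in 4.24% of the sites. Summits 2 and 3 shared C6T, present in 14.6%, and summit 3 also had A12C, present in 10.1%. Of the 12 specified bases, summit 1 held 7 and summits 2 and 3 held 8, the median of all sites. The central word GCCGCGGG of summit 1 and the word CCTGAGGG of summit 2 occurred in no other listed site on either strand. CCTCGGGG of summit 3 occurred in 5 sites, all weak, with fold enrichments from 2.11 to 2.31. Of the 29 labels with 3 or more summits, drl was 1 of 7 with no listed site that held the exact motif. Only listed sites were searched, not the sequence around the summits, and a summit without a listed site counted as lacking the motif.

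A weight matrix built from all sites placed them in the same order. Its score, in bits, adds up how strongly each base is favoured at its position, and ran from 2.96 to 18.23 with a median of 11.67. Fas1 scored 14.42 (rank 74 of 542) and Ama 12.51 (rank 198). The drl sites scored 10.33 at summit 3 (rank 366), 9.93 at summit 2 (rank 401) and 3.54 at summit 1 (rank 539). The strongest drl summit therefore had the poorest site of the gene, among the 4 lowest of the list.

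Distance from the summit did not follow the match. The centre of the site lay 9 bp from the Ama summit and 3 bp from drl summit 1, but 41 bp from drl summit 3, and 60 bp from both drl summit 2 and the Fas1 summit. Within 25 bp lay 2 of the 5 sites, beside 64.4% of all sites (Wilson interval 60.3 to 68.3%). The median over all sites was 18.0 bp, and 11.1% of the sites lay 60 bp or farther away. In those 60 summits with a distant site, the median fold enrichment was 2.76, and Fas1 ranked 2. Among these 5 listed sites, a full motif within 25 bp of the summit was found only at Ama. At Fas1 the full motif was displaced, and at drl summit 1 a centred site matched poorly.

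**Figure D2:**
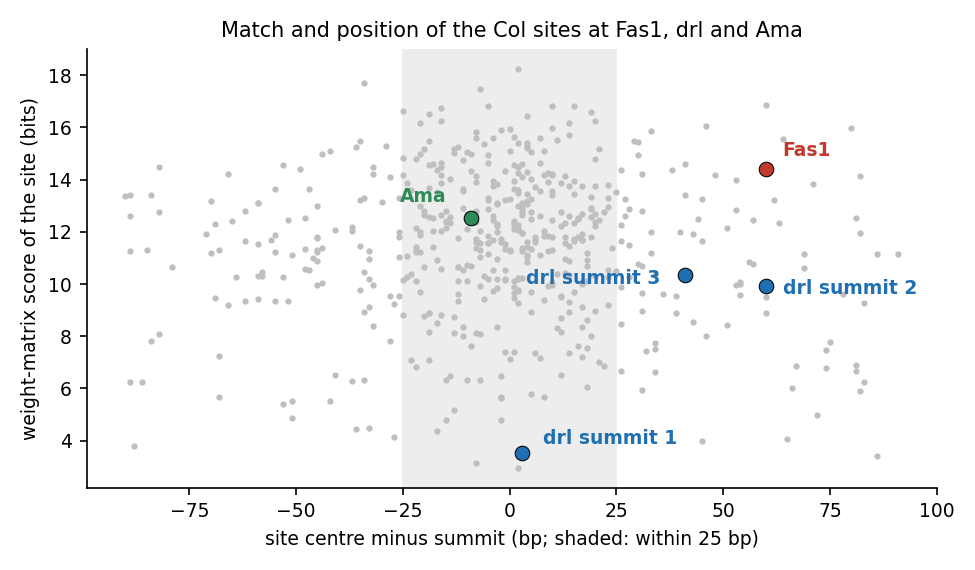
Weight-matrix score of each listed site (bits) against the distance of its centre from the summit (bp), for all 542 summits with a site (grey) and the 5 at Fas1, drl and Ama (coloured). Ama lies at 12.51 bits close to its summit, Fas1 at 14.42 bits but 60 bp away, and drl summit 1 at 3.54 bits and 3 bp.

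The genes also differed in what surrounded them. Fas1 stood alone: the nearest other summit was 64250 bp away, at CG42342 (4.38), and no summit lay within 50 kb. Over the list, 61.9% of the summits had another within 50 kb (Wilson interval 57.8 to 65.8%), as had the other 4 of the 5. For drl summit 2 these were only the other drl summits, and its nearest summit of another gene, brat, was 68880 bp away. Beyond CG42342, which had 4 summits on that side, the nearest label on the other side was Glut3 (2.37), 151050 bp from Fas1.

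Around drl, the nearest summit of another gene was at brat (2.38), a translational repressor gene, 32100 bp from drl summit 3 and 34940 bp from summit 1. On the far side, 139130 bp from drl summit 1, lay the summit of dnt (2.38), which encodes another Ryk-type receptor. Farther on were CG17349 and CG17350, whose leading summits of 7.07 and 6.24 were higher than any at drl.

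Ama lies in the Antennapedia complex, the gene cluster that holds the Hox genes of the head and anterior trunk. In the gene order of Release 6 its protein-coding neighbours were bcd and Dfd. The Ama summit had 3 others within 50 kb, all at genes of the complex: zen (2.55) at 9550 bp, pb (2.65) at 25450 bp and Dfd (2.07) at 37510 bp. Of all summits, 25.2% had 3 or more others within 50 kb. The genes pb and Dfd encode Hox proteins of the mouthpart segments, and zen acts in the dorsal embryo. The values of the 4 summits were alike, from 2.07 to 2.65, all under the median of the list. After these values were seen, a set of 10 genes of the complex was searched, not every gene in it. Leaving out Ama, 4 of the 9 genes searched had a summit, beside 2.92% of all protein-coding genes. Gene length and the distance between genes were not adjusted for, and their part in this share was not tested. Antp had 4 summits, from 2.37 to 5.22, and no summit was labelled lab, zen2, bcd, Scr or ftz.

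**Figure D3:**
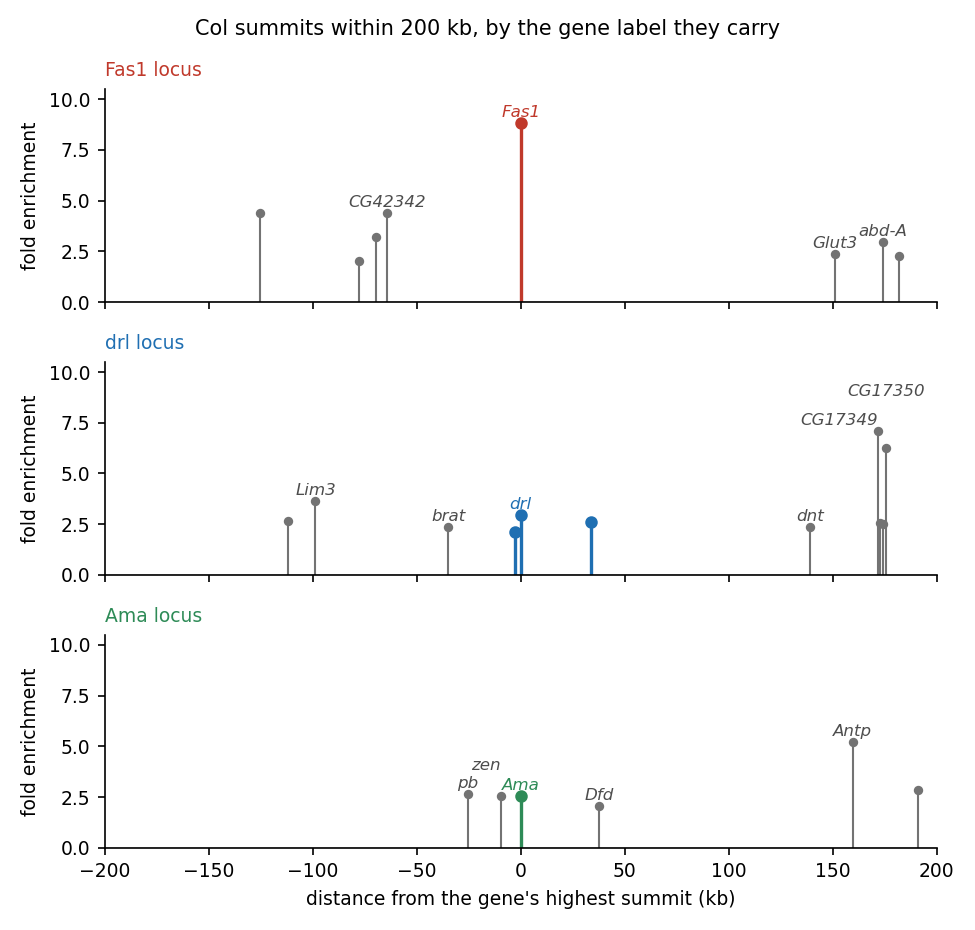
Fold enrichment of the summits within 200 kb of the highest summit at Fas1, drl and Ama, plotted by distance (kb) and named by gene label at the highest summit of each label. The coloured stems are the gene's own summits. Fas1 (8.84) has no neighbour within 50 kb, drl has 3 summits from 2.11 to 2.95, and Ama (2.53) has pb, zen and Dfd at similar heights.

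All 3 Ryk-type receptor genes of the fly carried a Col summit, drl among them because it was picked for its summits. Of all protein-coding genes, 2.92% carried a summit label. Beside drl, Drl-2 had a single summit at position 8954952 of chromosome 2R (3.18, rank 212), and dnt a single summit at 19341712 of chromosome 2L (2.38, rank 418). The Drl-2 summit had the exact motif 2 bp away, with all 6 bases of CCCNNGGG. The site at dnt, 8 bp away, held 5 of them, as at drl. Values across the family ran from 2.11 (drl summit 3, rank 509 of 559) to 3.18 (Drl-2, rank 212). The fold enrichment of a single library does not allow them to be ordered beyond its own unknown error.

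In the list of Derailed and Wnt5 signalling genes, 4 of 8 carried a summit: these receptors and Src64B (2.44), a Src-family kinase that acts with Drl. The site at Src64B, 27 bp away, held 4 of the 6 bases. No summit was labelled Wnt5, the ligand, nor Src42A, otk or otk2. Over all 13962 protein-coding genes of the reference table, 2.92% carried a summit label (Wilson interval 2.65 to 3.21%). Leaving out drl, which was picked for its summits, 3 of 7 did.

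The ligand of Neurotactin and Neurotactin itself both appeared. Nrt, singled out after its values were seen, had 1 summit at position 16763852 of chromosome 3L with a fold enrichment of 2.61, close to the 2.53 of Ama. Its site was 3 bp from the summit, and like that of Ama it held the exact motif and 9 of the 12 bases.

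Col summits were also found at other guidance and adhesion genes. Among cell adhesion molecules, 17 of 72 genes other than Fas1 and Ama carried a summit (23.6%), beside 2.92% of all protein-coding genes, their highest summits running from 2.03 to 5.99 with a median of 3.21. The leading ones were the teneurin Ten-a (5.99), the immunoglobulin-domain gene dpr16 (4.72), the septate junction gene Nrx-IV (4.11) and the leucine-rich repeat receptor gene Tl (4.0). Fas1 was above them all. Of the other fasciclin genes in that list, Fas2, Fas3 and mfas, the last of which shares the FAS1 domain, none had a summit.

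Among axon guidance ligands and receptors, 8 of 34 genes carried a summit (23.5%), beside the same 2.92% of all protein-coding genes. They were led by sli, the midline repellent (7.51), unc-5, a Netrin receptor gene (5.09), robo3, a Slit receptor gene (3.81), comm3 (3.09) and NetB, a Netrin (2.87). Each of these except NetB exceeded the highest drl summit. Among integrins and muscle attachment genes, 3 of 28 carried a summit (10.7%, beside 2.92% of all protein-coding genes): Grip, a scaffold protein of muscle guidance (5.93), kon, a transmembrane partner of Grip (3.38), and vn, a ligand of the EGF receptor (2.77). None of the integrin or laminin genes in that list was labelled.

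Over the 4 lists, 31 of 141 genes other than Fas1, drl and Ama had a summit (22.0%), beside 2.92% of all protein-coding genes. At a fold enrichment of at least 3, 16 of the 141 had one (11.3%), beside 1.42% of all protein-coding genes. The lists were drawn up with earlier results of these data known and a peak is assigned to the gene it overlaps or the nearest start, so the shares are a description. Neither gene length nor the distance between genes was adjusted for, and their part in the shares was not tested. For transcription regulators, the authors write that large regulatory regions could in part account for such an excess.

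**Figure D4:**
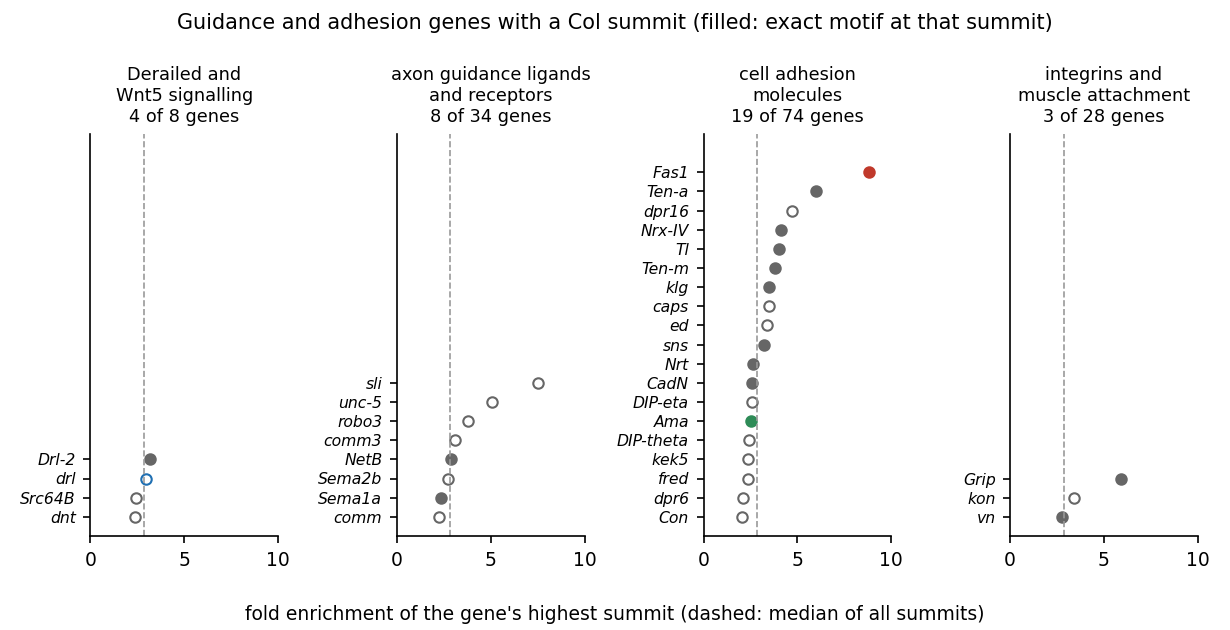
Fold enrichment of the highest summit of each gene with a Col summit in 4 lists of guidance and adhesion genes, with the median of all summits dashed. Filled points have the exact motif in the site listed for that summit and open points do not. Fas1 (8.84, red) is the highest, Ama (2.53, green) and drl (2.95, blue) lie near the median.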

How the data were processed

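The authors aligned single-end reads to BDGP release 5 (dm3) with Bowtie (0.12.7, per the labels), removed plasmid sequences left by elution with recombinant Col, called peaks with SISSRs at lenient thresholds keeping one read per coordinate, and assigned genes with PeakAnalyzer or by curation. The deposited list gives the position of each summit, a label naming a gene, and the SISSRs enrichment, a ratio on a linear scale whose background is not given in the sources used here. No values of the mock-IP or input library were used here.

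Positions are 1-based. Each summit was joined to the nearest Col site of the study's supplementary list (15 bases, found with MEME) whose centre lay within 100 bp, which 542 of 559 summits had. The listed sites were reverse-complemented to put CCCNNGGG at positions 4 to 11. The weight matrix used a pseudocount of 1 and an even base background. Gene names were matched to the RefSeq table (Release 6, names and gene order only), which held 409 of 414 names when unambiguous synonyms were allowed. Intervals are 95% Wilson intervals and cover counting error only.

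The summits and gene lists were chosen with earlier results of these data known. Named genes were the members, genes of the lists with a summit (the highest 5 of the longer lists) and neighbours by position or rank. Python 3.11.15, scipy 1.17.1 and matplotlib 3.10.9 were used, and the joining and matching were tested on simulated data.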

Additional observations from a re-analysis of the deposited data

How the results depend on the processing

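Of the 18 alternatives tried over 8 results, 11 left the value within 1.5 times the main one or within its interval, and 7 moved it. A fold enrichment of at least 3 left 1 of the 5 summits, that of Fas1, 17 genes of the 4 lists with a summit in place of 34, and 1 of the 3 Ryk-type genes, Drl-2. At 2.5, 4 summits were left, and merging summits within 200 bp changed nothing. At or above the median lay 2 of the 5 summits, but 1 of the 3 genes when labels were ranked by their highest summit, and 1 summit when only summits with a site within 50 bp were ranked, since the Fas1 site is 60 bp away. For the same reason, 1 of the 5 summits held the exact motif when sites had to lie within 50 bp. With 1 mismatch allowed and both strands read, all 5 sites held it. The site of drl summit 3 did so only on the strand opposite to the one shown, where C6T and A12C both stand. No paired analysis was possible because Col-IP and mock-IP have 1 library each. The list holds no read counts, so the error of each enrichment is not known, and differences such as that between drl (2.95) and Ama (2.53) cannot be judged.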
